A study of Homo sapiens with 6 samples.

Results

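The HOX gene clusters are the 4 arrays HOXA to HOXD of homeobox transcription factor genes. Their members were taken as the protein-coding genes named HOX with a cluster letter and a number, which are 39 of the 58174 genes measured (39 of 19762 protein-coding genes). They were measured in nuclear-enriched, ribosomal RNA-depleted total RNA of LN-229, an established human glioblastoma cell line. There were 3 libraries labelled sh-JMJD1C and 3 labelled control-NC. By its usual reading, sh-JMJD1C is a short hairpin RNA against the transcript of JMJD1C, a JmjC-domain member of the histone demethylase family, and all 6 libraries come from the same line. The labels do not give the sequence of the hairpin, how long the cells were treated, whether a single clone was used, or whether each library had a culture of its own. A p-value below therefore measures only the spread between these libraries.

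HOX proteins tell cells where they lie along the head-to-tail axis of the embryo. The genes are numbered by their place in a cluster, which matches where they act: low numbers pattern the hindbrain and neck, middle numbers the trunk, and high numbers the hindquarters, limbs and urogenital tract. Polycomb proteins keep a cluster silent and Trithorax proteins of the MLL family keep it active, and adult cells often retain the HOX code of their place of origin. The normal forebrain expresses few HOX genes, whereas glioblastomas and glioblastoma lines often do.

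On hg38 with the GENCODE 29 annotation, the members of HOXA lie on chromosome 7 (minus strand, 11 genes). Those of HOXB lie on chromosome 17 (48528526 to 48729178, minus strand, 10 genes), those of HOXC on chromosome 12 (53938765 to 54056030, plus strand, 9 genes) and those of HOXD on chromosome 2 (176092891 to 176190907, plus strand, 9 genes).

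The libraries held 1660560 to 1919675 reads in the sh-JMJD1C group and 544443 to 2960454 in the control-NC group, with control-NC 1 the smallest. Some libraries stood apart before any HOX gene was looked at. Transcripts of the RN7SL genes took 1.18%, 15.7% and 18.5% of the reads in sh-JMJD1C 1 to 3, against 0.378%, 0.590% and 1.77% in control-NC 1 to 3. Mitochondrial genes took 12.6%, 1.33% and 1.70% in sh-JMJD1C 1 to 3, against 2.93% to 8.70% in control-NC. The nuclear RNA MALAT1 took 0.0915% to 0.292% in sh-JMJD1C, against 1.25% to 2.40% in control-NC, and a single RNA gene, ENSG00000281181, took 25.03% of control-NC 1. The part of these shares in the HOX values was not tested. JMJD1C itself had 1.03, 0.251 and 0.657 scaled FPKM in sh-JMJD1C 1 to 3, against 3.97, 2.25 and 4.28 in control-NC 1 to 3, and was lower in every sh-JMJD1C library. Scaled FPKM is the deposited FPKM (fragments per kilobase of gene, relative to the library total) after division by 1 factor per library, so it compares a gene with itself between libraries. For JMJD1C, limma on scaled FPKM fitted a log2 difference of -1.82 (SE 0.41, adjusted p = 0.118). Limma-voom on the reads recovered from the FPKM fitted -2.49 (SE 0.51, adjusted p = 0.0253). Leaving out sh-JMJD1C 2 or 3 or control-NC 1 or 3 lost that call (limma-voom adjusted p = 0.0634 to 0.117). Of 7 markers of glial tumour lines, VIM (56.9 ± 8.44 scaled FPKM in sh-JMJD1C, 53.4 ± 8.67 in control-NC, SD, n = 3 each) and CD44 (7.03 ± 4.23 and 6.70 ± 0.641 in the same order) were abundant. SOX2 had 2 reads and GFAP 15 over all libraries, and OLIG2 and S100B had 0.

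Which positions were on was read from the control-NC libraries, counting a gene as on when its FPKM was above 0 in all 3. By that rule 21 of 39 HOX genes were on, or 53.8%, close to the 57.4% of all protein-coding genes (11338 of 19762). The HOXA cluster had 6 of 11 genes on: HOXA6, HOXA7, HOXA9, HOXA10, HOXA11 and HOXA13. The HOXB cluster had 7 of 10 on, all from HOXB3 up except HOXB8. In the HOXC cluster 6 of 9 were on: HOXC4, HOXC6, HOXC8, HOXC9, HOXC10 and HOXC11. HOXC5, HOXC12 and HOXC13 missed the rule, of which HOXC13 had 45 and 38 reads in control-NC 2 and 3 and 0 in the shallow control-NC 1. In the HOXD cluster only HOXD8 and HOXD9, of 9 genes, were on. By position, 3 of 12 genes numbered 1 to 4 were on, 8 of 11 numbered 5 to 8, and 10 of 16 numbered 9 to 13. Asking for reads in at least 2 control-NC libraries gave 30 genes, and a mean of at least 0.5 FPKM gave 24. The same rule in the sh-JMJD1C libraries was met by 15 genes: 5 in HOXA, 4 in HOXB, 6 in HOXC and 0 in HOXD. The share of all protein-coding genes that met it in sh-JMJD1C was not counted. Without that share, whether the difference between 21 and 15 genes is particular to HOX genes cannot be judged.

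At 7 positions no read was found: HOXB1, HOXB2, HOXD1, HOXD4, HOXD10, HOXD12 and HOXD13 had 0 reads in all 6 libraries. HOXB1 and HOXB2 pattern the hindbrain, HOXD10 hindlimb motor neurons, and HOXD13 the digits. A count of 0 over all 10766256 reads allows up to 3 reads, which is 0.279 RPM, the number of reads scaled to a library of 1000000. In a single library the same limit is 1.56 to 1.81 RPM in sh-JMJD1C and 1.01 to 5.51 RPM in control-NC. Such limits, and the intervals below, reflect counting error alone, because the protocols mention no molecular identifiers. Another set of members was seen in a few reads. HOXA2, which acts in the hindbrain and the branchial arches, had 1 read over the sh-JMJD1C libraries, against 8 over control-NC. HOXA3, needed for thymus and parathyroid in the mouse, had 0 against 3, HOXA4 had 2 against 0, and HOXD3 had 4 against 5. HOXC12 had 0 reads in sh-JMJD1C, against 4, all in control-NC 2, and HOXD11 had 0 against 2.

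**Figure D1:**
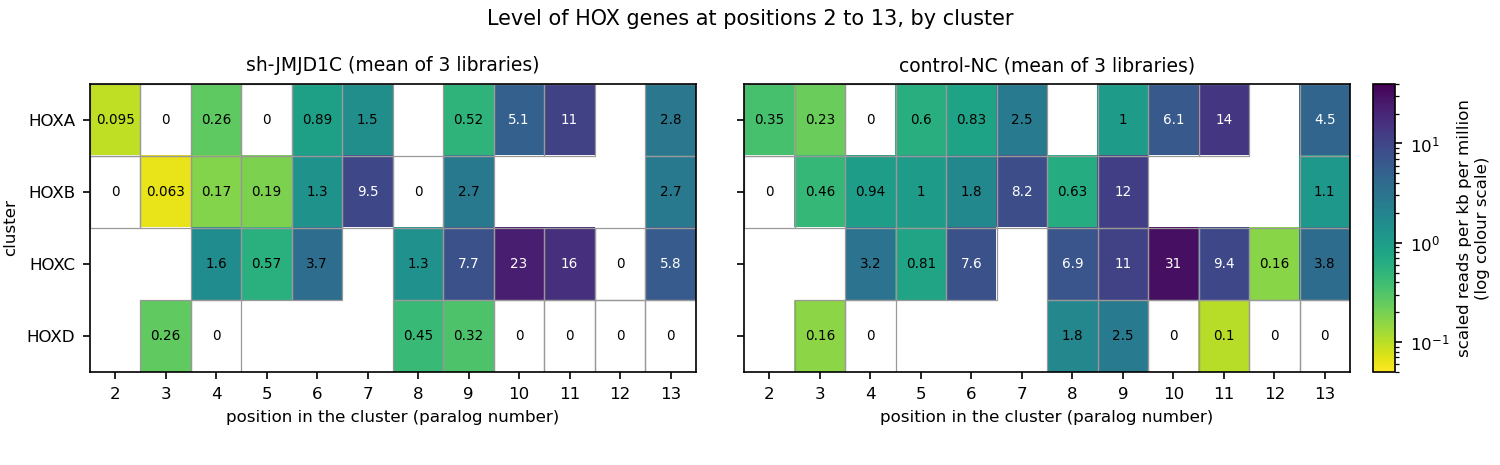
Level of the HOX genes at positions 2 to 13 by cluster (rows) and position (columns), as scaled RPM per kilobase of merged exons, mean of 3 libraries, with sh-JMJD1C on the left and control-NC on the right and a log colour scale. Cells without a number hold no gene in the human genome. In both groups HOXC10 is the highest cell, and the HOXD row holds no value above 2.55.

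Levels of different genes were compared as scaled RPM per kilobase of merged exons, because the deposited FPKM of a gene divides by the summed length of all its transcripts. HOXC10, which helps to specify hindlimb motor neurons, was the most abundant member in both groups. It stood at 23.0 ± 7.82 in sh-JMJD1C and 30.5 ± 13.3 in control-NC (SD, n = 3 each, here and in the levels that follow), and it was above HOXA11 in each library. In control-NC it was followed by HOXA11 (13.8 ± 4.797), a gene of forearm and uterus development, HOXB9 (11.7 ± 3.12), HOXC9 (10.7 ± 1.72) and HOXC11 (9.42 ± 0.258). The means of HOXB9, HOXC9 and HOXC11 lie within 1 SD of that of HOXA11, so their order is not resolved. HOXB7, HOXC6, HOXC8 and HOXA10 came next, with control-NC means of 8.25, 7.58, 6.94 and 6.14. In sh-JMJD1C, HOXC10 was followed by HOXC11 (16.2 ± 4.95), HOXA11 (10.96 ± 4.16), HOXB7 (9.45 ± 3.68) and HOXC9 (7.67 ± 4.36). Genes numbered 9 to 13 held 81.5% of all HOX reads in sh-JMJD1C (1003 of 1230) and 74.3% in control-NC (1699 of 2286). The HOXC cluster alone held 60% in sh-JMJD1C and 51.2% in control-NC. Most HOX reads thus came from high positions and from the HOXC cluster.

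Paralogs of the same number thus differed by cluster. At position 11, HOXC11 and HOXA11 were among the most abundant members while HOXD11 had 2 reads over all 6 libraries. At position 13, HOXA13, HOXB13 and HOXC13 were read in all sh-JMJD1C libraries and HOXD13 in none. The promoter windows of the pair HOXA11 and HOXD11 are shown because the first gene was on and the second nearly silent. Each is a window of 300 bases around the RefSeq start site on GRCh38.p14, with CG dinucleotides in capitals.
HOXA11, chr7:27185183-27185482, minus strand: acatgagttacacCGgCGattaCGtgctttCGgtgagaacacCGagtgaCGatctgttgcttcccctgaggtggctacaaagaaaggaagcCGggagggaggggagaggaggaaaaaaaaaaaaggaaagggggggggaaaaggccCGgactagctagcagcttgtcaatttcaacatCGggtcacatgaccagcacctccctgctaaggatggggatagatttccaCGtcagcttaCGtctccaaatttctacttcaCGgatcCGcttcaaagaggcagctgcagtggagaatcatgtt
HOXD11, chr2:176107030-176107329, plus strand: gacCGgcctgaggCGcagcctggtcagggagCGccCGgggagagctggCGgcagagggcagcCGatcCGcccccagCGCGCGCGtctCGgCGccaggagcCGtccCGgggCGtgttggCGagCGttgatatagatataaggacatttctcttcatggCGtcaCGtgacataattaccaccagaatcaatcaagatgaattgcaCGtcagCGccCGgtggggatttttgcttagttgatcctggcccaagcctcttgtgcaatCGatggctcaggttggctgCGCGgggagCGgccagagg
The window of HOXA11 holds 13 CG and that of HOXD11 holds 27, against a median of 14 over 35116 promoter windows, of which 96.0% hold at least 1. CG reads the same on both strands. The pair HOXA13, which was on, and HOXD13, with 0 reads, lay the other way, with 44 and 24 CG in their windows. Over the 20 members with a window, the 8 that were on had a median of 25.5 CG (13 to 44) and the 12 that were not had a median of 21 (4 to 36), so the ranges overlap.

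Depth limits how many HOX genes can be seen. A read was found for 21, 22 and 21 HOX genes in sh-JMJD1C 1 to 3, against 22, 31 and 29 in control-NC 1 to 3. With every library thinned to the 544450 recovered reads of the smallest, the expected number was 18.2, 16.2 and 15.8 in sh-JMJD1C, against 22.0, 24.8 and 24.0 in control-NC. At an equal read total fewer HOX genes were thus seen in each sh-JMJD1C library than in each control-NC library. Protein-coding genes outside the mitochondrion came to 11617, 11146 and 11450 in sh-JMJD1C, against 11526, 12165 and 12478 in control-NC, at the same read total. Because RN7SL, mitochondrial RNA and ENSG00000281181 took unequal shares of the libraries, depth was also matched on protein-coding reads outside the mitochondrion, at 303670 per library. The expected number of HOX genes was then 17.2, 14.9 and 14.7 in sh-JMJD1C, against 22.0, 22.7 and 21.96 in control-NC. Protein-coding genes seen at that depth numbered 11170, 10747 and 11160 in sh-JMJD1C, against 11526, 11716 and 11985 in control-NC, so these too were fewer in each sh-JMJD1C library. This measure was chosen after seeing the data and has no test.

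The comparison between sh-JMJD1C and control-NC asks whether HOX levels differ when JMJD1C is targeted. No HOX gene passed the test in either fit. With limma on scaled FPKM, 20 members had a mean of at least 0.5 FPKM and were tested, and 0 of them had an adjusted p below 0.05, against 0.185% of all 18383 genes tested (34 genes). An unadjusted p below 0.05 was found for 5 of the 20, while 19.9% of all genes tested reach it. Lower in sh-JMJD1C were HOXC8, HOXB9, HOXD9 and HOXB5, where the share of all genes is 10.1%, and higher was HOXB13, where it is 9.82%. With limma-voom on recovered reads, 13 members with at least 60 reads were tested and 0 were called, against 5.52% of all 11877 genes (656 genes). At an unadjusted p below 0.05 there were 3 of the 13 (HOXB9, HOXC8 and HOXB13), against 30.8% of all genes. Both totals are near the share of all genes tested. Of the members tested, 16 of 20 (80.0%) had a log2 fold change below 0 in the first fit and 9 of 13 (69.2%) in the second, against 55.8% and 52.8% of all genes tested. The median log2 fold change over the members was -0.44 in the first fit and -0.40 in the second, against -0.16 and -0.08 over all genes tested. As in any bulk sample, fewer cells that express a gene and less of its RNA per cell cannot be told apart.

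**Figure D2:**
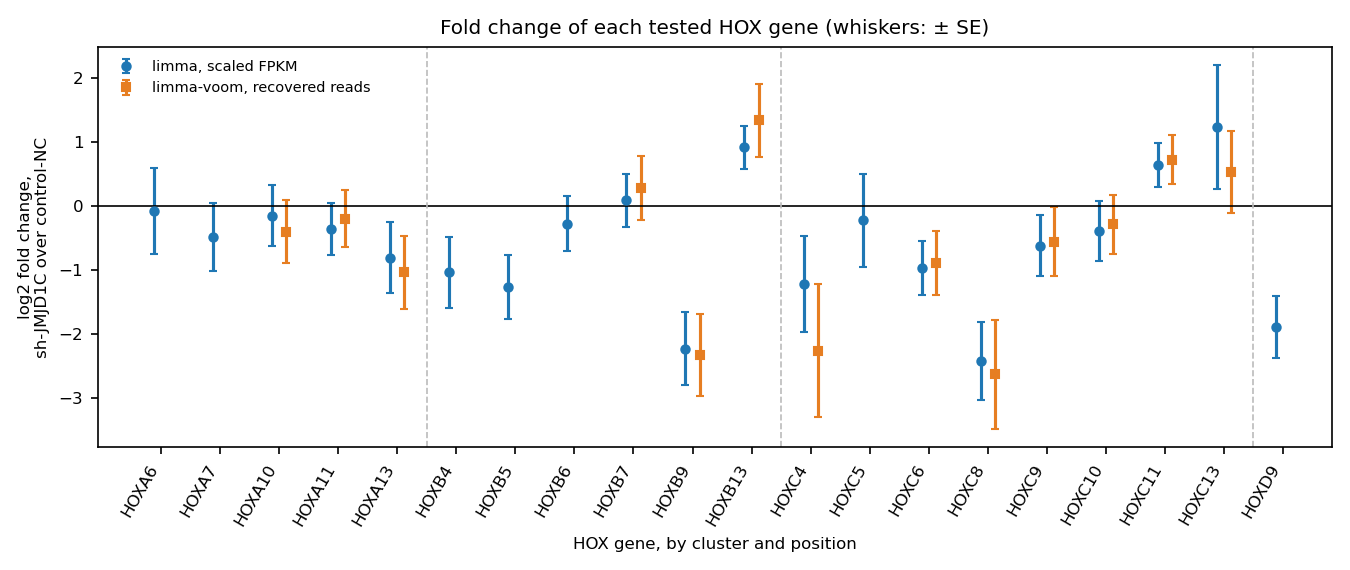
Log2 fold change of sh-JMJD1C over control-NC for each HOX gene tested (points, whiskers ± SE), by cluster and position, from limma on scaled FPKM (circles, 20 genes) and limma-voom on recovered reads (squares, 13 genes). HOXC8, HOXB9 and HOXD9 lie lowest in the first fit and HOXC13 and HOXB13 highest, and no gene has an adjusted p below 0.05.

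In limma with a pseudocount of 0.5, the lowest log2 fold changes were at HOXC8, HOXB9 and HOXD9. The order depends on the setting: with a pseudocount of 0.1 HOXB5 (-2.60) lay below HOXB9 (-2.49), and on reads HOXC4 (-2.26) came after HOXC8 and HOXB9, while HOXD9 had too few reads to be tested. HOXC8 (ENSG00000037965, chromosome 12, 54009106 to 54012362), which patterns the thorax and the motor neurons of the arm in the mouse, had 3.31, 0.349 and 0.365 scaled FPKM in sh-JMJD1C 1 to 3, against 7.83, 6.55 and 6.82 in control-NC 1 to 3. The groups did not overlap, and sh-JMJD1C 1 lay between the other sh-JMJD1C libraries and the controls. These values rest on 11, 1 and 1 reads in sh-JMJD1C, against 7, 30 and 50 in control-NC. Its log2 fold change was -2.42 (SE 0.61, limma adjusted p = 0.138) and, on reads, -2.63 (SE 0.85, limma-voom adjusted p = 0.0743). HOXB9 (ENSG00000170689, chromosome 17, 48621159 to 48626356), a gene of the thoracic skeleton and of mammary gland growth in the mouse, had 5.28, 1.79 and 0.802 scaled FPKM in sh-JMJD1C, against 10.6, 15.3 and 9.59 in control-NC. Again the groups did not overlap and sh-JMJD1C 1 was the highest of its group. HOXB9 had 24, 7 and 3 reads in sh-JMJD1C, against 13, 96 and 96 in control-NC. Its log2 fold change was -2.23 (SE 0.57, limma adjusted p = 0.141) and, on reads, -2.33 (SE 0.64, limma-voom adjusted p = 0.0534). HOXD9 (ENSG00000128709, chromosome 2, 176122720 to 176124937) had 0.607, 0.352 and 0 scaled FPKM in sh-JMJD1C, against 3.39, 3.09 and 1.24 in control-NC. The groups did not overlap. Per kilobase of merged exons, HOXD9 had the highest control-NC mean of the HOXD genes (2.55 ± 1.20). The mean of HOXD8 (1.80 ± 1.99) lay within 1 SD of it, so their order is not resolved. HOXD9 rested on 3 reads in sh-JMJD1C and 26 in control-NC, and its log2 fold change was -1.90 (SE 0.49, limma adjusted p = 0.141). Scaled control-NC reads were 5.73 times those of sh-JMJD1C, with an exact 95% counting interval of 1.76 to 29.6. The ratio was 5.43 without control-NC 1, 4.07 without control-NC 2 and 8.99 without control-NC 3.

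Which of these genes passed depended on the settings. Without sh-JMJD1C 1, HOXC8 (adjusted p = 0.0409) and HOXB9 (0.0481) passed in limma, where 2.58% of all genes did. Over protein-coding genes alone, HOXC8, HOXB9 and HOXD9 passed (adjusted p = 0.0221, 0.0242 and 0.0237 in the limma fit), where 8.96% of 10169 genes did. Without sh-JMJD1C 1 the log2 fold changes themselves were lower, at -3.12 for HOXC8 and -2.79 for HOXB9 in limma. In the fit of protein-coding genes alone the fold changes stayed the same, but the SE was 0.52 for HOXC8, against 0.61 over all genes, and its unadjusted p was 0.000578, against 0.00560. HOXB9 and HOXD9 likewise had a lower unadjusted p there (0.000750 and 0.000717, against 0.00602 and 0.00618). On reads, limma-voom called HOXB9 with genes of at least 20 reads (adjusted p = 0.0485, where 4.78% of all genes passed) and with quantile normalization (0.0472, where 8.59% did). Scaled by library totals, HOXB9 (0.0208) and HOXC8 (0.0420) passed, where 10.1% of all genes did. Without sh-JMJD1C 1, limma-voom called HOXB9, HOXC8 and HOXC4 (adjusted p = 0.0257, 0.0352 and 0.0473), where 19.7% of all genes passed. Their log2 fold changes on reads were then -3.04, -3.60 and -3.71, against -2.33, -2.63 and -2.26 with all libraries. In sh-JMJD1C 1, RN7SL took 1.18% of reads and JMJD1C stood at 1.03 scaled FPKM, the lowest share and the highest JMJD1C level of its group. The part of either in the higher HOXC8 and HOXB9 values of that library was not tested.

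**Figure D3:**
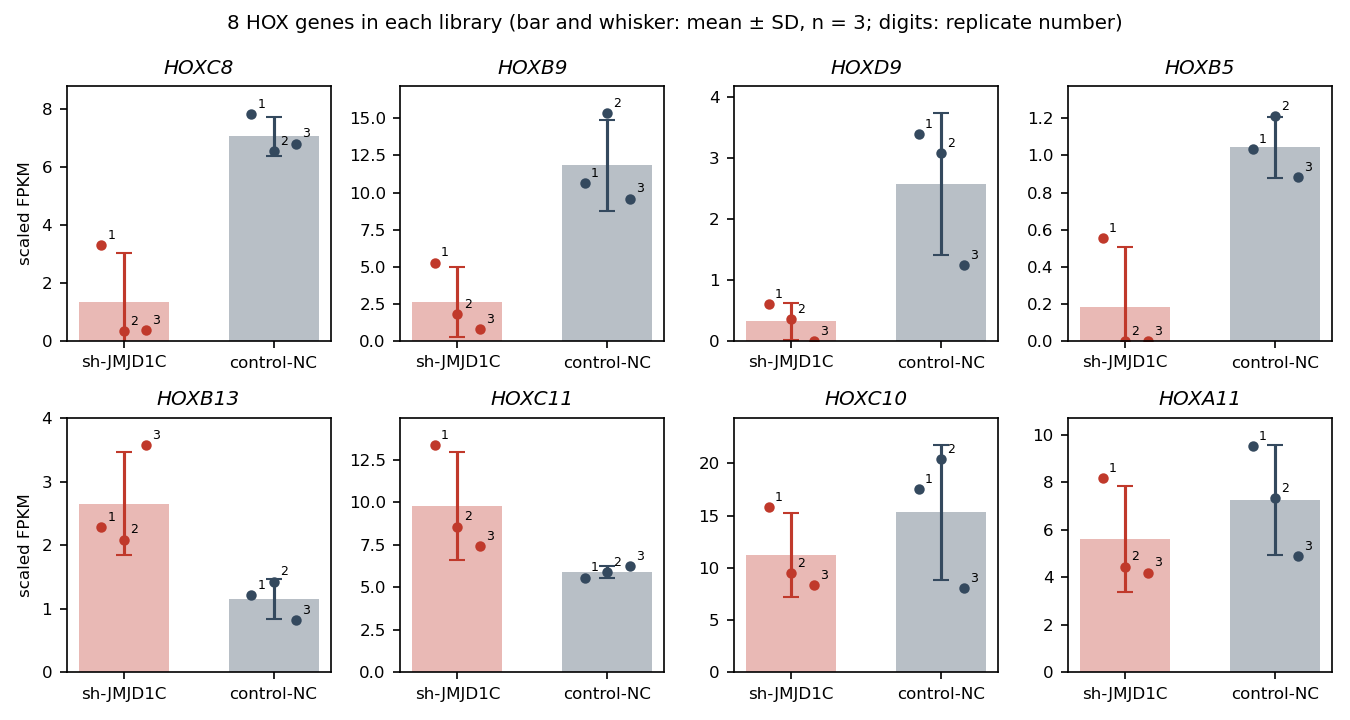
Scaled FPKM of 8 HOX genes in each library, sh-JMJD1C left of control-NC in each panel, with points for libraries (digits give the replicate number) and bars with whiskers for mean ± SD, n = 3. HOXC8, HOXB9, HOXD9 and HOXB5 are lower in every sh-JMJD1C library, HOXB13 and HOXC11 are higher in every one, and HOXC10 and HOXA11 overlap.

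HOXB13 and HOXC11 lay the other way. HOXB13, a gene of prostate and tail development, had 2.29, 2.09 and 3.58 scaled FPKM in sh-JMJD1C 1 to 3, against 1.22, 1.43 and 0.818 in control-NC 1 to 3. On that scale every sh-JMJD1C library was above every control-NC library, at 43 reads against 25. On FPKM as deposited the groups overlapped, with 1.65 in sh-JMJD1C 2 against 1.73 in control-NC 2. Its log2 fold change was 0.92 (SE 0.34, limma adjusted p = 0.215) and, on reads, 1.34 (SE 0.58, limma-voom adjusted p = 0.144). HOXC11, active in hindlimb and kidney, had 13.4, 8.57 and 7.42 scaled FPKM in sh-JMJD1C, against 5.58, 5.92 and 6.27 in control-NC. Its groups did not overlap either on that scale, and the control-NC libraries were close together. As deposited they overlapped, at 14.1, 6.78 and 6.48 FPKM in sh-JMJD1C, against 4.85, 7.15 and 8.22 in control-NC. The log2 fold change of HOXC11 was 0.64 (SE 0.34, limma adjusted p = 0.330) and, on reads, 0.73 (SE 0.39, limma-voom adjusted p = 0.218). With reads scaled by library totals, the log2 fold change was only 0.80 for HOXB13 and 0.30 for HOXC11. Among the 20 members tested in limma, the groups did not overlap for 4 lower and 2 higher genes, where 14.5% and 12.2% of all genes tested do so. On scaled FPKM, members without overlap lay on both sides within HOXB and within HOXC. HOXB9 was lower and HOXB13 higher in sh-JMJD1C, and HOXC8 was lower and HOXC11 higher. The 2 higher members among 20 do not exceed the share of all genes, and both overlapped on FPKM as deposited. Neither the difference between HOXB9 and HOXB13 nor that between HOXC8 and HOXC11 was tested.

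The HOXC cluster held the most reads. Summed over its 9 genes it had 230, 102 and 93.9 RPM of library total in sh-JMJD1C 1 to 3, against 163, 261 and 188 in control-NC 1 to 3, and the groups overlapped through sh-JMJD1C 1. HOXC10 had 15.8, 9.53 and 8.37 scaled FPKM in sh-JMJD1C, against 17.5, 20.4 and 8.06 in control-NC, with a log2 fold change of -0.38 (SE 0.47, limma adjusted p = 0.641). HOXC9, which represses other HOX programmes in thoracic motor neurons of the mouse, had 5.36, 3.84 and 1.34, against 5.87, 4.58 and 4.79 (log2 fold change -0.62, SE 0.48, limma adjusted p = 0.489). Both overlapped between the groups. HOXC6, which acts at forelimb level in the mouse spinal cord, had 3.67, 1.65 and 1.61 scaled FPKM in sh-JMJD1C, against 6.45, 5.03 and 3.15 in control-NC. Only the lowest control-NC library lay inside the range of sh-JMJD1C, and the log2 fold change was -0.96 (SE 0.42, limma adjusted p = 0.264). HOXC4 had 3.01, 0 and 0.367, against 1.12, 2.85 and 3.08 in control-NC, so that sh-JMJD1C 1 stood with the controls. Its log2 fold change was -1.22 (SE 0.75, limma adjusted p = 0.386). HOXC4 and HOXC6 share 484 exon bases on the same strand, and how the authors' counting split such reads is not given in the sources used here. HOXC13, a gene of hair and nail formation, had 6.09, 5.71 and 5.41 in sh-JMJD1C, against 0, 7.66 and 4.04 in control-NC. Its log2 fold change of 1.24 (SE 0.97, limma adjusted p = 0.502) rests on control-NC 1, without which it was -0.0017. HOXC5 had 0.943, 0.729 and 0 scaled FPKM in sh-JMJD1C, against 0, 0.686 and 1.86 in control-NC, from 21 reads in all.

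The HOXB cluster summed to 37.0, 25.5 and 32.5 RPM in sh-JMJD1C 1 to 3, against 55.1, 85.8 and 70.3 in control-NC 1 to 3. The sums did not overlap between the groups, and the means were 31.7 ± 5.77 in sh-JMJD1C and 70.4 ± 15.4 in control-NC. Without HOXB9, which held the most reads of the cluster, the log2 ratio of the means was -0.51 in place of -1.15. The median log2 fold change of single genes on library totals was -0.52, though a ratio of sums is another measure. With median-ratio scaling, the HOXB sum without HOXB9 was 28.7 ± 7.12 RPM in sh-JMJD1C and 31.5 ± 4.47 in control-NC (log2 ratio -0.13), and the libraries overlapped. HOXB7 had 3.34, 7.20 and 7.26 scaled FPKM in sh-JMJD1C, against 7.11, 4.69 and 4.34 in control-NC. The ranges overlapped fully and the log2 fold change was 0.09 (SE 0.41, limma adjusted p = 0.914), turning to -0.19 on FPKM as deposited. HOXB6 had 0.891, 0.443 and 0.928 in sh-JMJD1C, against 0.474, 1.48 and 1.21 in control-NC, also with overlap (log2 fold change -0.27, SE 0.43, limma adjusted p = 0.727). HOXB5 had 0.556, 0 and 0 scaled FPKM in sh-JMJD1C, against 1.04, 1.21 and 0.884 in control-NC, with no overlap. It rested on 2, 0 and 0 reads in sh-JMJD1C (2 in all), against 1, 6 and 7 in control-NC (14 in all). The place of control-NC 1 above sh-JMJD1C 1 thus rests on 1 read. The log2 fold change of HOXB5 was -1.26 (SE 0.50, limma adjusted p = 0.233). HOXB4, known for expanding blood stem cells, had 0.151, 0.350 and 0 in sh-JMJD1C, against 1.69, 0.329 and 0.823 in control-NC, from 3 and 18 reads. The scaled control-NC reads of HOXB4 were 3.97 times those of sh-JMJD1C (exact 95% counting interval 1.16 to 21.0), and the libraries overlapped narrowly (log2 fold change -1.04, SE 0.56, limma adjusted p = 0.330). HOXB3, under the level needed for the test, had 0, 0 and 2 reads in sh-JMJD1C, against 2, 6 and 15 in control-NC, a ratio of 7.61 (1.88 to 66.6) of control-NC over sh-JMJD1C.

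HOXB8, which acts in myeloid progenitors and the mouse spinal cord, had 0 reads in all sh-JMJD1C libraries, against 0, 6 and 6 in control-NC 1 to 3. With up to 3 reads allowed over the sh-JMJD1C group and the control-NC reads taken as counted, it was at least 2.65-fold lower in sh-JMJD1C. Without control-NC 2 that limit was 2.04-fold. The counting error of the few control-NC reads is not part of it. The messenger of HOXB8 carries a near-perfect site for miR-196, a microRNA encoded inside the HOX clusters themselves, and miR-196 cuts this messenger in mouse embryos. The mature miR-196 sequences and, for contrast, that of miR-10a, another microRNA of the clusters, are shown from RefSeq (GRCh38.p14) with the seed, bases 2 to 8, in capitals. The HOXB8 site stands beside them, so that the pairing can be read.
miR-196a-5p, from MIR196A1 on chromosome 17 and MIR196A2 on chromosome 12: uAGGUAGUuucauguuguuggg
miR-196b-5p, from MIR196B on chromosome 7: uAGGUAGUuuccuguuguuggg
miR-10a-5p, from MIR10A on chromosome 17: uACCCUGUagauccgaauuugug
HOXB8 site, 3′ UTR, with bases that complement miR-196a-5p in capitals: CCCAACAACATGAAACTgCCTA
The members miR-196a-5p and miR-196b-5p share the seed AGGUAGU, and miR-10a-5p has another. At the HOXB8 site 21 of 22 bases complement miR-196a-5p. No other gene of the 19544 protein-coding genes scanned had a site with 3 or fewer mismatches. A perfect match to the seed, ACTACCT on the transcript strand, was found in 10 of the 39 members, against 18.4% of all genes scanned, among them HOXA7 with 4 matches and HOXC8 with 2. HOXB8 had 0 such matches, because the 1 mismatch of its site, a G facing a U, lies opposite the seed. A match is a description of the letters and not of binding. The microRNA genes themselves had few reads in these libraries: MIR196A1 had 0, 1 and 1 in sh-JMJD1C, against 0, 0 and 3 in control-NC. MIR196A2 had 0 in sh-JMJD1C, against 0, 4 and 3 in control-NC, and MIR10A, MIR10B, MIR196B and MIR615 had 0 throughout. These are reads counted over annotated genes, and the mature microRNAs were not measured. Low counts here therefore do not show that the mature forms were low. MIR196B and MIR10A also lie wholly within exons of HOXA9 and HOXB4, and how such reads were counted is not given.

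The HOXA cluster summed to 97.2, 35.9 and 49.4 RPM in sh-JMJD1C 1 to 3, against 71.6, 120 and 127 in control-NC 1 to 3, with sh-JMJD1C 1 inside the control-NC range. HOXA11 had 8.20, 4.46 and 4.20 scaled FPKM in sh-JMJD1C, against 9.53, 7.35 and 4.88 in control-NC, and the ranges overlapped (log2 fold change -0.36, SE 0.41, limma adjusted p = 0.617). HOXA10, known from uterine development and leukaemia, had 2.42, 1.44 and 2.27 in sh-JMJD1C, against 0.925, 3.30 and 3.47 in control-NC, with overlap (log2 fold change -0.15, SE 0.48, limma adjusted p = 0.872). HOXA13, a gene of digits and genital tract, had 4.71, 0.893 and 1.64 in sh-JMJD1C, against 2.51, 4.19 and 5.37 in control-NC. For HOXA13 too, sh-JMJD1C 1 lay among the controls, and the log2 fold change was -0.81 (SE 0.55, limma adjusted p = 0.439). HOXA7 had 1.85, 0.856 and 0.673 in sh-JMJD1C, against 3.44, 1.74 and 0.670 in control-NC (log2 fold change -0.49, SE 0.53, limma adjusted p = 0.596). HOXA6 had 0, 1.46 and 0.383, against 1.17, 0.458 and 0.143, from 5 and 4 reads. HOXA9, a driver of acute leukaemias, stayed under the level tested, with 1, 2 and 4 reads in sh-JMJD1C, against 1, 5 and 21 in control-NC. HOXA5, which is needed for lung development in the mouse, had 0 reads in sh-JMJD1C, against 0, 1 and 11 in control-NC. With up to 3 reads allowed over the sh-JMJD1C group and the control-NC reads taken as counted, it was at least 2.65-fold lower in sh-JMJD1C. That limit rests on control-NC 3, without which 1 control read is left and no lower bound can be given. Without strand, reads of a HOXA gene and its antisense RNA cannot be told apart, and whether the counting used strand is not given in the sources used here. HOXA7 shares 62.5% of its exon bases with HOXA-AS3 (44 reads), HOXA11 31.1% with HOXA11-AS (220 reads) and HOXA10 16.4% with HOXA10-AS (137 reads). In all, 25 of the 39 members share exon bases with another gene, 19 of them with a gene on the opposite strand. HOXB9, HOXC8, HOXD9, HOXB13 and HOXC11 share none.

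The HOXD cluster was the quietest, with 4.17, 3.13 and 0 RPM in sh-JMJD1C 1 to 3, against 14.7, 9.98 and 7.77 in control-NC 1 to 3. The sums did not overlap, but they rest on 13 and 51 reads, of which HOXD9 gave 3 and 26. Besides HOXD9, HOXD8 had 5, 1 and 0 reads in sh-JMJD1C, against 5, 2 and 11 in control-NC, which overlapped once scaled. HOXD3, with 0, 4 and 0 reads in sh-JMJD1C, against 0, 3 and 2 in control-NC, overlapped too. A HOXD sum without HOXD9 was not computed. Scaling matters for all 4 sums: relative to RPM of library total, median-ratio scaling shifts all genes. The median log2 fold change of all genes on reads was -0.08 with median-ratio scaling and -0.52 with library totals. With median-ratio scaling the means were 65.8 ± 23.7 in sh-JMJD1C and 90.9 ± 7.26 in control-NC for HOXA, 35.6 ± 2.19 and 61.6 ± 9.78 for HOXB, 154 ± 57.5 and 180 ± 39.5 for HOXC, and 2.70 ± 2.34 and 10.3 ± 6.01 for HOXD. Each sum was lower on average in sh-JMJD1C on either scaling, and the sums of HOXB and HOXD did not overlap on either. For HOXC the log2 ratio of the means on library totals was -0.52. That is also the value of the median over single genes, which is another measure. Sums over members were not tested.

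**Figure D4:**
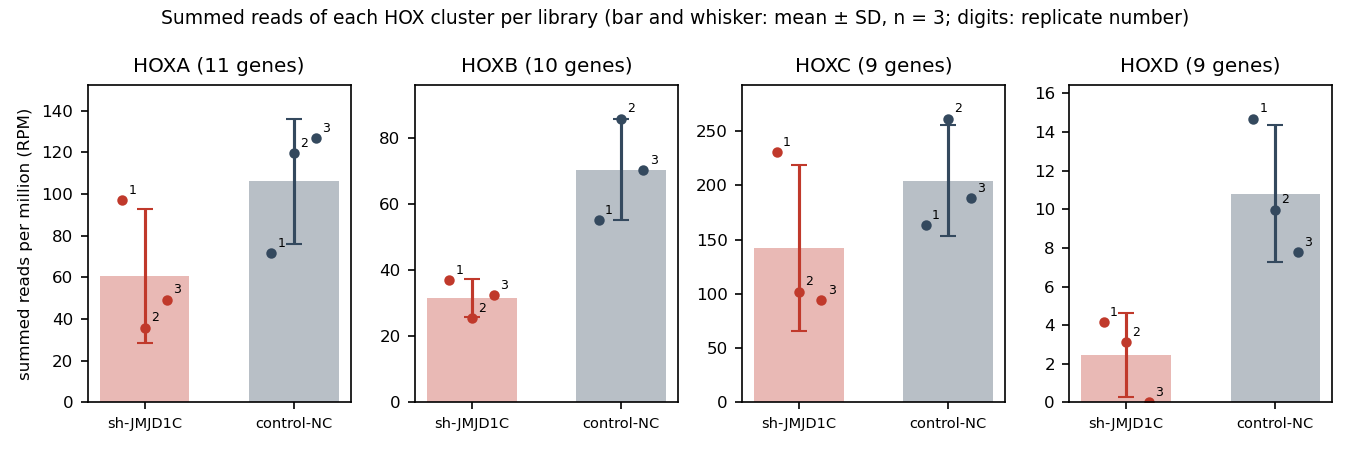
Summed reads of each HOX cluster per library in RPM of library total, sh-JMJD1C left of control-NC in each panel, with points for libraries (digits give the replicate number) and bars with whiskers for mean ± SD, n = 3. The HOXB and HOXD sums do not overlap between the groups, and sh-JMJD1C 1 lies inside the control-NC range for HOXA and HOXC.

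The partners and regulators of HOX proteins were followed as lists. HOX proteins bind DNA together with the TALE homeodomain proteins PBX, MEIS and PKNOX. Of 9 such genes, 6 were tested in limma and 7 on reads, and 0 passed in either. PBX2 had 3.45, 3.72 and 4.78 scaled FPKM in sh-JMJD1C, against 3.88, 6.76 and 5.17 in control-NC. PBX4 had 0.963 ± 0.510 in sh-JMJD1C and 0.858 ± 0.225 in control-NC. The levels of PBX2 and of PBX4 overlapped between the groups.

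The MLL and menin proteins and the DOT1L complex keep HOX clusters active, above all in leukaemia. All 15 genes of this list were tested in both fits and 0 passed. The list's median log2 fold change was -0.84 in limma on FPKM and -0.82 on reads, against -0.16 and -0.08 over all genes tested. An unadjusted p below 0.05 with a lower level in sh-JMJD1C was found for 6 of 15 in each fit, where 10.1% and 14.5% of all genes reach it. They were KMT2A, KMT2C, PSIP1, MLLT3, AFF1 and AFF4, named after their values were seen. KMT2A, which encodes MLL itself, had 4.53, 1.79 and 1.39 scaled FPKM in sh-JMJD1C, against 6.02, 5.73 and 4.95 in control-NC, with no overlap. For KMT2A the log2 fold change was -1.12 (SE 0.43, limma adjusted p = 0.229). PSIP1, the chromatin tether of MLL and menin, had 3.35, 1.12 and 1.64, against 9.94, 5.24 and 5.28 (log2 fold change -1.57, SE 0.45, limma adjusted p = 0.157). In both genes sh-JMJD1C 1 was again the highest of its group. The most abundant of the list were WDR5 (29.1 ± 5.05 in sh-JMJD1C, 16.0 ± 6.5 in control-NC), MLLT1 (21.2 ± 9.13 and 19.1 ± 6.17) and KMT2D (10.01 ± 8.64 and 16.0 ± 6.13), so that the members did not all lie on the same side.

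Non-coding RNAs of the clusters were present beside the coding genes. Of 24 found in the files, 15 were tested in limma and 5 on reads, and 0 passed. HOXC-AS1, transcribed opposite to the HOXC genes, had 2.71, 3.14 and 3.29 scaled FPKM in sh-JMJD1C, against 12.6, 10.3 and 7.996 in control-NC. The groups were well apart, with sh-JMJD1C 1 no higher than its neighbours, and the log2 fold change was -1.59 (SE 0.32, limma adjusted p = 0.104). On reads it was -1.42 (SE 0.68, limma-voom adjusted p = 0.177), from 4, 4 and 4 reads in sh-JMJD1C, against 5, 21 and 26 in control-NC. HOXC-AS2 overlapped between the groups, at 4.97 ± 1.30 scaled FPKM in sh-JMJD1C and 5.33 ± 2.70 in control-NC. HOTAIR, a HOXC RNA studied for its link to Polycomb proteins and named after its values were seen, had 0.451, 0.785 and 0.548, against 0.840, 0.902 and 1.18 in control-NC, with no overlap. HOTAIR had a log2 fold change of -0.43 (SE 0.36, limma adjusted p = 0.524).

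Genes next to the clusters on the same chromosomes were followed beside the members. Of 25 such genes, 18 were tested in each fit. On reads 2 of 18 rose and 0 fell, where 3.71% and 1.81% of all genes did, and in limma 0 passed. Both that rose encode subunit c of the mitochondrial ATP synthase. ATP5MC1, near HOXB, had 7.15, 40.8 and 24.7 scaled FPKM in sh-JMJD1C, against 2.99, 3.45 and 2.23 in control-NC. ATP5MC3, near HOXD, had 9.83, 33.9 and 30.4 in sh-JMJD1C, against 3.24, 5.20 and 3.33 in control-NC. In both, sh-JMJD1C 1 was the lowest of its group and still above every control. The log2 fold change on reads was 2.85 (SE 0.62, limma-voom adjusted p = 0.0303) for ATP5MC1 and 2.52 (SE 0.52, limma-voom adjusted p = 0.0253) for ATP5MC3. The calls were lost without sh-JMJD1C 2, sh-JMJD1C 3, control-NC 1 or control-NC 3, where the limma-voom adjusted p was 0.0696 to 0.130. Both genes have near-identical copies elsewhere in the genome, and how the counting split such reads is not given in the sources used here. The median log2 fold change of the neighbours was -0.02 in limma and 0.02 on reads, beside the -0.44 and -0.40 of the HOX members. That difference was not tested.

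The ParaHox genes, the sister cluster of the HOX genes in evolution, were silent, with 0 reads for all 6 (GSX1, GSX2, PDX1, CDX1, CDX2 and CDX4). Markers of other cell types were low, apart from MBP. Their 5 genes summed to 8.43 to 16.5 scaled RPM in sh-JMJD1C, against 25.7 to 44.8 in control-NC. Most of it was MBP, a myelin gene (11.03 ± 4.88 in sh-JMJD1C, 31.0 ± 12.3 in control-NC, log2 fold change on reads -1.32, limma-voom adjusted p = 0.106). In control-NC, MBP was near HOXB9, which had 30.1 ± 8.05 scaled RPM. EPCAM had 0 reads in sh-JMJD1C, against 19 in control-NC 2 and 3, PTPRC had 1 read, RBFOX3 16 and PECAM1 0. Their part in the HOX values was not tested.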

How the data were processed

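Per the labels' protocols, TRIzol was used to extract the RNA of LN-229 cells, and the library kit was VAHTS Universal V6. The authors deposited FPKM per gene for each library, and per the file headers the last column is that of the whole library, which was the one analysed. The submitters' processing notes name Bowtie 0.12.2 and the build hg38 with no role given. Which tool counted the reads, whether it used strand and how it handled shared reads is not given in the sources used here. IDs were matched to symbols (57392 of 58174) and to GENCODE 29 (57836).

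In each library the low FPKM step in multiples of a single read. Whole reads were therefore recovered from each FPKM, the library total and the gene length, which for 93.9% of 29280 genes above 0 was the summed length of all transcripts in GENCODE 29. Below 1000 reads, 100% of values lay within 0.05 of a whole read, which was partly fixed by the choice of length for the remaining 1797 genes.

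FPKM were divided by median-ratio factors, and log2(scaled FPKM + 0.5) of genes with a mean of at least 0.5 was fitted with limma 3.58.1 (R 4.3.3, trend) on the group alone. Fold changes on that scale understate the change of low genes. Limma-voom was fitted to the reads of genes whose 6 libraries together held at least 60. Tests were two-sided, with Benjamini-Hochberg adjustment at 0.05 over all genes tested. The scripts were tested on simulated data. Members with a mean of at least 0.5 FPKM or at least 60 reads were given per library, and of each companion list the genes past the threshold or else the 3 with the highest mean. The members and lists were chosen with earlier results of these data known. HOXC4-AS1 was not matched by name. Some genes that enter the counts and sums are not reported here by name. Promoter windows were matched for 20 of 39 members. Sites of miR-196a-5p were searched in GENCODE 29 transcripts of 19544 protein-coding genes. Alternatives were pseudocounts, filters, scalings, a length correction, left-out libraries and a block on the replicate number.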

Additional observations from a re-analysis of the deposited data

How the results depend on the processing

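With limma on scaled FPKM, the number of HOX genes called (0) became 3 over protein-coding genes alone (HOXC8, HOXD9 and HOXB9) and ranged from 0 to 2 when each library was left out, the 2 being HOXC8 and HOXB9 without sh-JMJD1C 1. On reads it became 1 with genes of at least 20 reads, 2 with scaling by library totals, 1 with quantile normalization and 0 to 3 with each library left out, the 3 being HOXC8, HOXB9 and HOXC4 without sh-JMJD1C 1. Over all genes, limma on scaled FPKM called 34 as reported, 84 with a pseudocount of 0.1, 79 on FPKM as deposited, 2 with quantile normalization and 911 over protein-coding genes alone. It called 0 with a pseudocount of 1, with no filter, with a filter of 0.1 FPKM and without both libraries numbered 1, and 0 to 475 with each library left out. Only without sh-JMJD1C 1 was that count above 0. On reads, the 656 genes called became 1195 with library totals, 1020 with quantile normalization, 405 with the length trend removed and 31 to 2334 with each library left out, the last without sh-JMJD1C 1. The cause was not tested. Of the calls, the share that was higher in sh-JMJD1C was 32.4% in limma (78.1% without sh-JMJD1C 1) and 67.2% on reads (26.0% with library totals).

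The replicate numbers did not pair the libraries: same-numbered libraries of the 2 groups correlated at 0.0089, 0.1397 and 0.2202 in their deviations from the group means, and sh-JMJD1C 1 correlated best with control-NC 2. With a replicate block, limma on scaled FPKM called 0 genes and 0 HOX genes. With the block on reads 4260 genes were called (35.9% of those tested), with 3 HOX genes among them (HOXC8, HOXB9 and HOXC6).

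Under the alternatives, log2 fold changes of single genes kept their sign and side of the threshold in 419 values, changed sign in 22, none of them past the threshold, and passed the threshold with the same sign in 15. In limma, quantile normalization gave 0.30 for HOXA6, 0.0075 for HOXB6 and 0.12 for HOXC5, and FPKM as deposited gave -0.19 for HOXB7. Without both libraries numbered 1, HOXA6 was at 0.73 and HOXC13 at -0.053. With each library left out, HOXA6 ranged from -0.60 to 0.39, HOXA10 from -0.67 to 0.076, HOXB7 from -0.080 to 0.44, HOXC5 from -0.83 to 0.30 and HOXC13 from -0.0017 to 2.02. On reads HOXB7 was at -0.19 with library totals and -0.47 with the length trend removed. With each library left out on reads, HOXA11 ranged from -0.64 to 1.28e-05, HOXC9 from -0.94 to 0.0079 and HOXC10 from -0.88 to 0.027. The log2 ratio of the summed HOXB reads without HOXB9 was -0.51 on library totals and -0.13 with median-ratio scaling, a setting chosen after seeing the data. On library totals the median over single genes, another measure, was -0.52. The sums of all 4 clusters stayed lower in sh-JMJD1C with each library left out. Read numbers limit the rest: 26 of 39 members had under 60 reads over the 6 libraries.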
